A study of Mus musculus with 5 samples.

Results

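The genes described here encode structural and matricellular proteins of the extracellular matrix, mainly of its interstitial part. They are Tnc, Thbs1, Sparc, Spp1, Fn1, Col5a1, Col6a1, Col12a1, Col7a1 and Col18a1. They were taken by symbol from a count table of 13143 genes, in which all 10 are listed, and all 10 passed the low-count filter that left 11975 genes for testing. RNA was sequenced from 4T1 cells, a mouse mammary carcinoma line, kept in culture without treatment, and the comparison asks which genes depend on TAZ, the transcriptional co-activator encoded by Wwtr1. The 2 TAZ-KO libraries came from Cas9-expressing 4T1 clones that had received a lentivirus with a guide RNA against Wwtr1 and had been selected with puromycin. The 3 WT libraries came from single-cell clones of the Cas9-expressing line that had received no guide. Each library is 1 clone, so the p-values below measure the spread between clones. All clones carry Cas9, and both TAZ-KO clones share the guide and a founder clone. The effects of TAZ loss therefore cannot be told apart from those of founder, guide vector or selection. The table's own names for the TAZ-KO libraries contain YAP, whereas their titles and genotype labels give TAZ knockout. Grouping was by the labels.

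The interstitial matrix is a mesh of collagen fibrils and fibronectin that cells assemble around themselves and hold through integrins and other receptors. Matricellular proteins such as tenascin-C, thrombospondin-1, SPARC and osteopontin lie in the same space and carry little load, but bind receptors, growth factors and proteases and alter how cells adhere. Both groups are widely studied in breast tumours, where fibroblasts make much of the matrix and carcinoma cells make part of it. TAZ does not bind DNA itself and reaches its targets mainly through TEAD factors, and several matrix and matricellular genes have been described as YAP and TAZ targets in other cells.

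Libraries held between 14695384 and 16452147 counts, so that 3 counts, used here as the detection floor, corresponded to between 0.184 and 0.203 CPM, counts scaled to a common library size with TMM. Wwtr1 had 129 and 152 CPM in TAZ-KO clones 1 and 2, against 659.7, 312 and 315 CPM in WT clones 1, 2 and 3. Its log2 fold change (TAZ-KO over WT) was -1.61 (SE 0.40), with an adjusted p of 0.19 in edgeR and of 0.0059 in DESeq2. Without WT clone 1 it was -1.16 (edgeR adjusted p = 0.0019). WT clone 1 stood apart from the other WT clones over the whole table. The chi-square of counts per degree of freedom was 185 and 187 between WT clone 1 and WT clones 2 and 3, against 17.9 between WT clones 2 and 3. Between WT clone 1 and TAZ-KO clones 1 and 2 it was 68.6 and 67.5. Between the TAZ-KO clones and WT clones 2 and 3 it ran from 173 to 203, and between the TAZ-KO clones it was 37.5. WT clones 2 and 3 thus stood apart from the other 3 clones. Fold changes of the 10 genes are given with and without WT clone 1. The fit without it sets TAZ-KO against the 2 clones that differed least from each other. WT clone 1 was singled out from these same data, so adjusted p-values of that fit are descriptive only. They carry the split of clones over the whole table, where edgeR called 4598 of 11871 genes without WT clone 1. The epithelial markers Epcam, Krt8, Krt18, Krt19 and Cdh1 were detected in every clone. Krt18 had 1338 and 1574 CPM in TAZ-KO clones, against between 787 and 2210.2 CPM in WT clones. Krt14 was at 20 and 5 counts in TAZ-KO clones, and at 3, 40 and 87 counts in WT clones 1, 2 and 3, and Krt5 was not listed. Of 7 macrophage markers, Ptprc, Csf1r, Adgre1 and Itgam were at 0 to 21 counts, Lyz2 at 16 to 83, Cd14 at 120 to 193 and Cd68 at 139 to 491 counts.

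RefSeq promoter windows of GRCm38.p6, each from 250 bases before to 50 bases after a start site, were available for 7 of the 10 genes in 10 windows. Fn1, Thbs1 and Col12a1 had no window, so no motif was looked for in them. The TEAD motif (GGAATG, or CATTCC on the other strand) was found in the windows of 1 gene, Col18a1. Over all promoters it was found in 14.7% of 32851 windows and for 16.6% of genes. The AP-1 motif (TGANTCA, both strands) was found for 1 gene, Col6a1, 90 bases before the start, and in 7.81% of all windows (8.97% of genes). The SRF motif was found in none of the 10 windows and in 1.63% of all. No AP-1 match overlapped a TEAD match, since the 2 kinds lay in windows of different genes, and a match is a run of letters rather than a measured binding site. The window of Col5a1 and 1 of the 2 overlapping windows of Tnc are printed because these genes had the lowest p-values among the 10, and that of Col18a1 because it is the one of its 2 windows that holds the TEAD matches, 104 and 54 bases before the start. All run 5′ to 3′ on the gene's strand in lower case, with TEAD matches in capitals.
Tnc, chr4:64046966-64047265, minus strand: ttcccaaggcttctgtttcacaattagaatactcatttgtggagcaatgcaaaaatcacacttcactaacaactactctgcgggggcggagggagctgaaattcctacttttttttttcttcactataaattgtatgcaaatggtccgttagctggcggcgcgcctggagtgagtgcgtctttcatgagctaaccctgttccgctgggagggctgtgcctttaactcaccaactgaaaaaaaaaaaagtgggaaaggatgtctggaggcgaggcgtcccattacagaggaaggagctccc
Col5a1, chr2:27886175-27886474, plus strand: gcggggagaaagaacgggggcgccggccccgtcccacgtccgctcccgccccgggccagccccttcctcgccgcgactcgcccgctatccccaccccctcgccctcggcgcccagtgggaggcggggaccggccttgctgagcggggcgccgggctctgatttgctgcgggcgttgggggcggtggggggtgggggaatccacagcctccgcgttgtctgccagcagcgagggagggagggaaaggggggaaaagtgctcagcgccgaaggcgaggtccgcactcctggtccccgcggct
Col18a1, chr10:77113656-77113955, minus strand: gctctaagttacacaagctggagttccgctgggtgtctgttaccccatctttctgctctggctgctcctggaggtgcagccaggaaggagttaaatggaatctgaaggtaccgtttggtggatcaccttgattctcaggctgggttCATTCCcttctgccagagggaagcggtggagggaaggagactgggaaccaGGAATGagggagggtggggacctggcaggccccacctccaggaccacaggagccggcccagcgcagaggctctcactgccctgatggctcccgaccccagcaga

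In the comparison of TAZ-KO with WT clones, none of the 10 genes passed the edgeR test at an adjusted p of 0.05, where 0.0501% of all genes tested did. The fitted differences had no common direction. In bulk RNA, fewer cells expressing a gene and less RNA per cell cannot be told apart. Fold changes were positive for 7 genes and negative for 3, with a median log2 fold change of 0.19, against -0.03 over all genes tested. At an unadjusted p of 0.05 in edgeR, Tnc was higher and Col5a1 lower in TAZ-KO clones, 2 of the 10 genes where 17.4% of all genes passed (7.94% higher and 9.41% lower). DESeq2 called the same genes at its adjusted p of 0.05, with 5.25% of all genes called. The edgeR fit with 1 surrogate variable called Tnc and Col7a1, 2 of the 10 genes against 4.41% of all genes. That variable was -0.25 and -0.32 in TAZ-KO clones 1 and 2, and -0.50, 0.53 and 0.55 in WT clones 1, 2 and 3. It followed the split of WT clones 2 and 3 from the other clones, so that fit leans on WT clone 1. Tnc and Sparc had both TAZ-KO clones above every WT clone, 2 of the 10 genes against 18.7% of all genes tested. Col5a1 alone had both below every WT clone, 1 of the 10 genes against 18.6%. With 3 clones against 2 there are 10 splits, so an exact permutation test of a single gene cannot give a p under 0.1, and none was run.

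**Figure D1:**
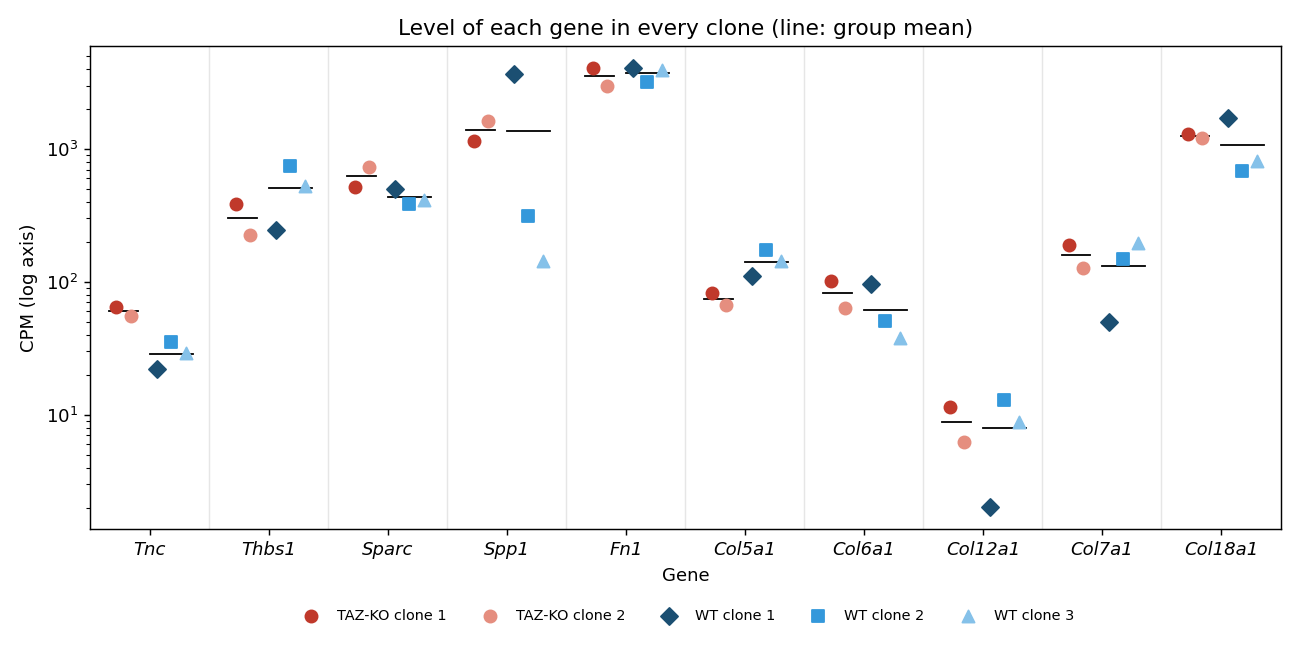
Level of each gene in CPM (log axis) by clone, with the 2 TAZ-KO clones in red to the left of the 3 WT clones in blue and a black line at each group mean. Clones of the 2 genotypes separate for Tnc, Sparc and Col5a1, and Spp1 spans from 143 to 3663 CPM within the WT clones.

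Tnc encodes tenascin-C, a large matricellular glycoprotein that interferes with fibronectin-mediated adhesion (mm10 chromosome 4, 63959785 to 64047015, minus strand). It had 64.8 and 55.7 CPM in TAZ-KO clones 1 and 2, against 22.0, 35.0 and 29.1 CPM in WT clones 1, 2 and 3. Both TAZ-KO clones were above every WT clone, and the gap between the genotypes in CPM exceeded the spread within either. The log2 fold change was 1.07 (SE 0.25, 95% interval 0.46 to 1.68, edgeR adjusted p = 0.17). The difference passed in DESeq2 (adjusted p = 0.021), in the edgeR fit with 1 surrogate variable (adjusted p = 0.012) and in the edgeR fit without WT clone 1, where the log2 fold change was 0.91 (adjusted p = 0.0063). The 4 other genes tested within 1 Mb had a median log2 fold change of -0.55 over all clones. edgeR called 0 of them over all clones and 3 of the 4, all lower in TAZ-KO clones, without WT clone 1. In that fit 19.7% of all genes were called lower.

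Thbs1 encodes thrombospondin-1, which activates latent TGF-β, binds CD47 and CD36 and inhibits angiogenesis (chromosome 2, 118111876 to 118127133, plus strand). Its level was 385 and 225 CPM in TAZ-KO clones 1 and 2, against 247, 741 and 530.0 CPM in WT clones 1, 2 and 3. WT clone 1 lay between the TAZ-KO clones, while WT clones 2 and 3 lay above all the others, so the groups overlapped. TAZ-KO over WT, the log2 fold change was -0.73 (SE 0.49, 95% interval -1.92 to 0.46, edgeR adjusted p = 0.46). Without WT clone 1 it was -1.06 (edgeR adjusted p = 0.021), and with 1 surrogate variable it was 0.021.

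Sparc encodes a collagen-binding, counter-adhesive protein also called osteonectin (chromosome 11, 55394500 to 55423183, minus strand). Sparc had 520.0 and 729 CPM in TAZ-KO clones 1 and 2, against 503, 383 and 409.8 CPM in WT clones 1, 2 and 3. The TAZ-KO clones were above every WT clone, but TAZ-KO clone 1 lay closer to WT clone 1 than to TAZ-KO clone 2. edgeR gave a log2 fold change of 0.53 (SE 0.25, 95% interval -0.07 to 1.14, edgeR adjusted p = 0.32), and without WT clone 1 it was 0.66 (edgeR adjusted p = 0.037). Without TAZ-KO clone 2 it was 0.27.

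Spp1 encodes osteopontin, a secreted phosphoprotein that binds integrins and CD44 and that many carcinomas produce (chromosome 5, 104435118 to 104441050, plus strand). Spp1 had 1152 and 1615 CPM in TAZ-KO clones 1 and 2, against 3663, 315 and 143 CPM in WT clones 1, 2 and 3. The WT clones alone covered a 25.7-fold range, with WT clone 1 above and WT clones 2 and 3 below both TAZ-KO clones. The log2 fold change over all clones was 0.01 (SE 1.25), with a 95% interval of -3.0 to 3.0. A difference of several-fold in either direction could thus not be excluded in this design. Set against WT clones 2 and 3 alone, the log2 fold change was 2.60 (95% interval 1.73 to 3.47, edgeR adjusted p = 0.0021). Without WT clone 2 or WT clone 3 it was -0.46 or -0.52. A transcript of unknown type on the same strand, Gm42793, overlaps 18.8% of the exon length of Spp1, and reads of the shared bases cannot be assigned to either.

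Fn1 encodes fibronectin, the adhesive glycoprotein that cells assemble into fibrils through α5β1 integrin (chromosome 1, 71585520 to 71653200, minus strand). It had 4059 and 2982 CPM in TAZ-KO clones 1 and 2, against 4076, 3171 and 3961 CPM in WT clones 1, 2 and 3. The groups overlapped and the highest clone exceeded the lowest by 1.37-fold. Among the 10 genes Fn1 had the highest CPM and the narrowest range. edgeR fitted a log2 fold change of -0.09 (SE 0.28, 95% interval -0.75 to 0.58, edgeR adjusted p = 0.88), so that differences within that interval were not detectable. An antisense gene, Apol7d, overlaps 2.50% of its exon length and held 0 to 14 counts per library.

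Col5a1 encodes the α1 chain of collagen V, which nucleates collagen I fibrils and sets their diameter (chromosome 2, 27886425 to 28039514, plus strand). It had 82.1 and 66.6 CPM in TAZ-KO clones 1 and 2, against 111, 173 and 142 CPM in WT clones 1, 2 and 3. Both TAZ-KO clones were below every WT clone, and WT clone 1 was the WT clone nearest to them. The log2 fold change was -0.93 (SE 0.26, 95% interval -1.56 to -0.31, edgeR adjusted p = 0.21). It passed in DESeq2 (adjusted p = 0.046) and in the edgeR fit without WT clone 1 (-1.08, adjusted p = 0.0036). Other genes of the region had negative fold changes as well. The 22 other genes tested within 1 Mb had a median log2 fold change of -0.55, and the 920 genes of chromosome 2 had one of -0.31. Their part in the Col5a1 difference was not tested, and Thbs1, on the same chromosome, had 15 neighbours with a median of -0.24.

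Col6a1 encodes a chain of collagen VI, which forms beaded microfibrils around cells (chromosome 10, 76708792 to 76726168, minus strand). Its level was 102 and 63.4 CPM in TAZ-KO clones 1 and 2, against 95.7, 50.9 and 37.6 CPM in WT clones 1, 2 and 3. WT clone 1 lay between the TAZ-KO clones and the other WT clones lay below these, so that the groups overlapped. The fitted log2 fold change was 0.43 (SE 0.43, 95% interval -0.61 to 1.47, edgeR adjusted p = 0.61) with all clones and 0.91 without WT clone 1 (edgeR adjusted p = 0.025). Without TAZ-KO clone 1 it was 0.072, and with 1 surrogate variable 0.048.

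Col12a1 encodes collagen XII, which lies on the surface of collagen I fibrils (chromosome 9, 79598991 to 79718831, minus strand). It was the least abundant of the 10 genes, with 11.4 and 6.20 CPM in TAZ-KO clones 1 and 2, against 2.03, 12.9 and 8.82 CPM in WT clones 1, 2 and 3. The value in WT clone 1 rested on 30 counts (exact Poisson interval 1.37 to 2.90 CPM, counting error only), which kept it below every other clone. Its log2 fold change was 0.15 (SE 0.72, 95% interval -1.59 to 1.88, edgeR adjusted p = 0.92), and without WT clone 1 it was -0.30 (edgeR adjusted p = 0.53).

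Col7a1 encodes collagen VII, the anchoring fibril that ties epithelial basement membrane to the stroma beneath (chromosome 9, 108953586 to 108984875, plus strand). It had 188 and 128 CPM in TAZ-KO clones 1 and 2, against 50.1, 149.6 and 198 CPM in WT clones 1, 2 and 3. The TAZ-KO clones fell within the range of the WT clones, and WT clone 1 was the lowest clone, as for Col12a1. edgeR gave a log2 fold change of 0.25 (SE 0.54, 95% interval -1.05 to 1.56, edgeR adjusted p = 0.82). It was -0.13 without WT clone 1 (edgeR adjusted p = 0.67) and 1.29 with 1 surrogate variable (adjusted p = 0.020 in that edgeR fit).

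Col18a1 encodes collagen XVIII, a proteoglycan of basement membranes whose C-terminal fragment is endostatin (chromosome 10, 77052178 to 77166548, minus strand). Its level was 1301 and 1208 CPM in TAZ-KO clones 1 and 2, against 1723, 684 and 812 CPM in WT clones 1, 2 and 3. The TAZ-KO clones agreed closely and lay between WT clone 1 above and WT clones 2 and 3 below, the arrangement also seen for Spp1. The log2 fold change was 0.23 (SE 0.43, 95% interval -0.80 to 1.25, edgeR adjusted p = 0.79), and it was 0.75 without WT clone 1 (edgeR adjusted p = 0.017). The gene lies 326 kb from Col6a1, and Slc19a1 overlaps its span without sharing an exon.

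Leaving out WT clone 1 was 1 of 5 fits that each leave out a clone, and it changed the outcome for most of the genes. Against WT clones 2 and 3 alone, 5 of the 10 genes were called higher in TAZ-KO clones by edgeR (Tnc, Sparc, Spp1, Col6a1 and Col18a1), with 19.1% of all genes tested called higher. Thbs1 and Col5a1 were called lower, 2 of the 10 genes against 19.7% of all genes. Fn1, Col7a1 and Col12a1 were not called. The other 4 fits that leave out a clone called 0 genes in the whole table by edgeR, with 852 to 1063 genes at an unadjusted p under 0.05. Over all genes, edgeR called 4598 without WT clone 1 and 6 with it.

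**Figure D2:**
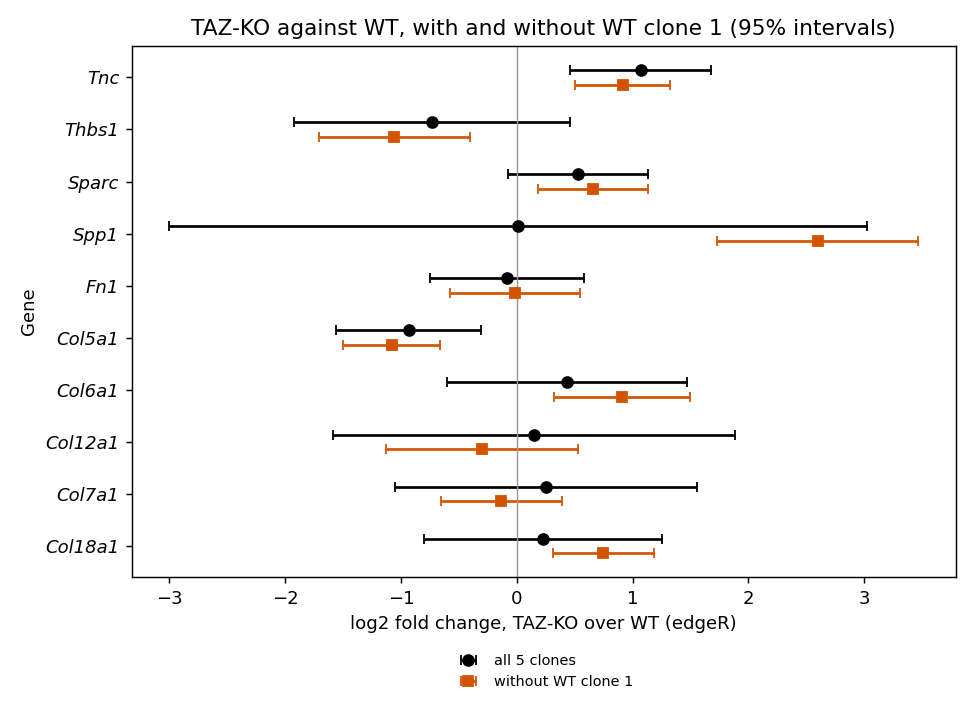
Fitted log2 fold change of each gene, TAZ-KO over WT, with its 95% interval from edgeR, over all 5 clones (black circles) and without WT clone 1 (orange squares). For Spp1 the estimate was 0.01 with all clones and 2.60 without WT clone 1, while Tnc and Col5a1 kept intervals on one side of 0 in both fits.

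Differences between clones of one genotype were wide for several of these genes, and their medians exceeded those over all genes. The SD of log2 CPM over the 3 WT clones had a median of 0.70 over the 10 genes, against 0.34 over all genes tested, and ran from 0.20 for Fn1 and Sparc to 2.44 for Spp1. Between the TAZ-KO clones, the absolute difference in log2 CPM had a median of 0.49, against 0.24 over all genes. It was largest for Col12a1 (0.86) and Thbs1 (0.77) and smallest for Col18a1 (0.11). WT clone 1 differed from the mean of WT clones 2 and 3 by a median of 1.17 on the log2 scale, against 0.50 over all genes, and WT clones 2 and 3 differed from each other by 0.36, against 0.20. Wide differences were not limited to the 10 genes. Of the lists described below, the 11 other collagen chains tested had medians of 0.98 for the WT SD and 0.86 between TAZ-KO clones. Several of these chains had few counts, such as Col8a2 at 1 to 11, and counting error adds to their spread. The 14 other matrix glycoproteins tested had medians of 0.54 and 0.64, and the 22 matrix receptors 0.48 and 0.41. Genes of collagen synthesis varied less, with medians of 0.32 and 0.35 over the 22 tested.

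**Figure D3:**
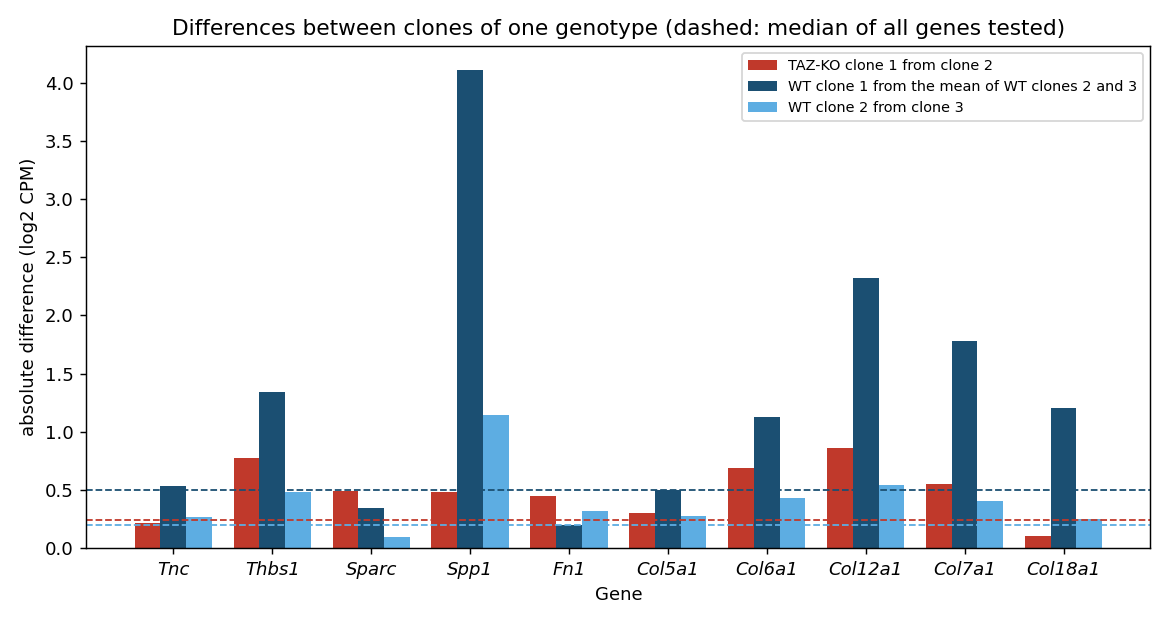
Absolute differences in log2 CPM between clones of one genotype for each gene, with TAZ-KO clones in red, WT clone 1 from the mean of WT clones 2 and 3 in dark blue, and WT clone 2 from WT clone 3 in light blue. Dashed lines give the median over all genes tested (0.24, 0.50 and 0.20), and the highest bar is that of Spp1 for WT clone 1.

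WT clone 1 was the highest or the lowest of all 5 clones for 6 of the 10 genes (highest for Fn1, Spp1 and Col18a1, lowest for Tnc, Col7a1 and Col12a1), where 42.0% of all genes had it at an end. WT clones 2 and 3 both lay above or both below the other 3 clones for 6 of the 10 genes (Thbs1, Sparc, Spp1, Col5a1, Col6a1 and Col18a1), a pattern that 59.2% of all genes showed. Some marker sums had the same arrangement as Spp1 and Col18a1. The 6 epithelial markers measured, of 7, summed to 2899 and 3001 CPM in TAZ-KO clones 1 and 2, against 3918, 1795 and 1695 CPM in WT clones 1, 2 and 3. Krt8 and Krt18 made up most of this sum. Cdh1 ran the other way, with 424 and 251 CPM in TAZ-KO clones, against 246, 658 and 490.1 CPM in WT clones. So did Krt14 at low levels, with 1.32 and 0.33 CPM in TAZ-KO clones, against 0.20, 2.45 and 5.37 CPM in WT clones. Epcam and Krt19 had neither arrangement. The 5 fibroblast markers measured, of 9, summed to 92.5 and 90.5 CPM in TAZ-KO clones, against 123, 45.6 and 30.2 CPM in WT clones. Almost all of the fibroblast sum came from Pdgfra, with 90.8 and 89.7 CPM in TAZ-KO clones and 117, 37.9 and 26.3 CPM in WT clones. Thy1 was at 4 and 0 counts in TAZ-KO clones and at 15, 1 and 1 counts in WT clones. The 7 macrophage markers summed to 19.2 and 24.8 CPM in TAZ-KO clones, and to 30.1, 44.0 and 26.3 CPM in WT clones, most of it from Cd68 and Cd14, and the 2 endothelial markers measured summed to at most 1.49 CPM. The part of these differences in the results above was not tested.

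Levels were ordered by CPM per kb of exon, a scale that holds only as far as reads cover whole transcripts, since a 3′ end protocol is named in one source. Over the 5 clones the median was 699 CPM per kb for Spp1, 339 for Fn1, 172 for Col18a1, 133 for Sparc and 63.3 for Thbs1. It was 14.5 for both Col7a1 and Col6a1, 13.0 for Col5a1, 4.51 for Tnc and 0.58 for Col12a1. The place of Spp1 depended on the clone, and Col7a1, Col6a1 and Col5a1 did not separate beyond the spread between clones.

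Collagen VI assembles from α1, α2 and another chain such as α3, and the partner chains of Col6a1 were found at far lower levels. Col6a2 had 3.31 and 0.93 CPM in TAZ-KO clones 1 and 2, against 1.36, 1.53 and 0.31 CPM in WT clones 1, 2 and 3. Col6a3 had 0.13 and 0.53 CPM in TAZ-KO clones, against 0.54, 0.12 and 0.06 CPM in WT clones, at or near the floor. Per kb of exon, Col6a1 exceeded Col6a2 by between 58.7-fold and 232-fold in every clone, and the pair lies 85.2 kb apart on chromosome 10. These ratios are imprecise, since Col6a2 had 5 to 50 counts per library and the highest ratio, in WT clone 3, rests on 5 counts. As said above, the scale per kb holds only as far as reads cover whole transcripts. Col5a2 and Col5a3, the usual partners of Col5a1, were not among the genes listed.

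**Figure D4:**
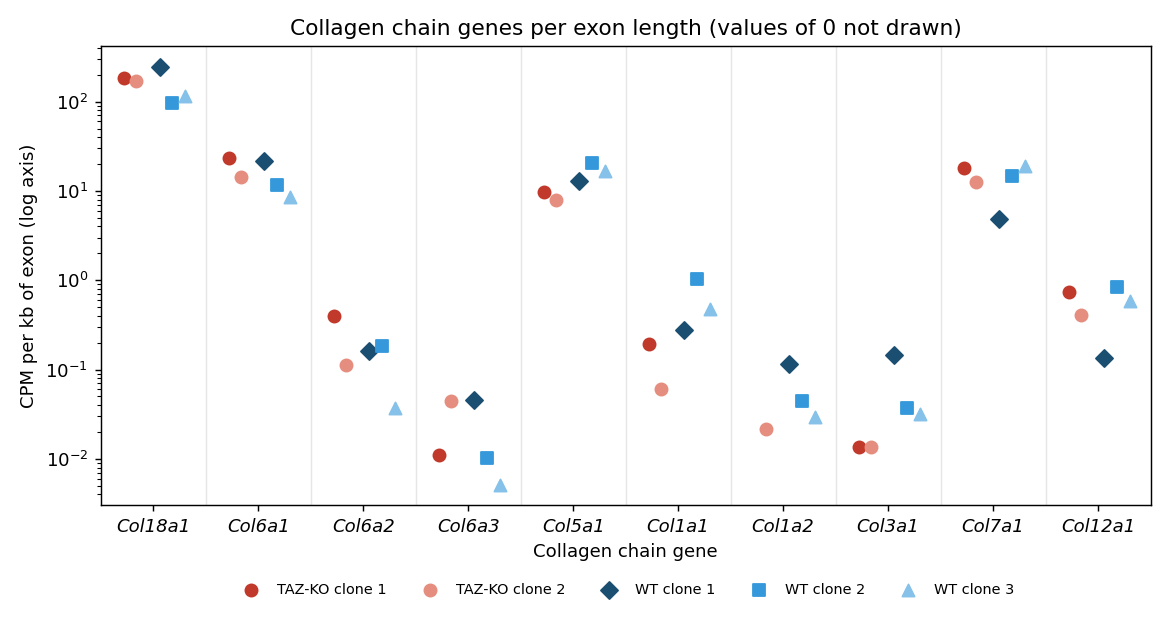
CPM per kb of exon (log axis) for collagen chain genes by clone, with TAZ-KO clones in red to the left of WT clones in blue, and values of 0 not drawn. Col18a1 was between 97.5 and 245 CPM per kb, Col6a1, Col5a1 and Col7a1 lay between 4.87 and 23.3, and Col6a2, Col6a3, Col1a2 and Col3a1 were below 1.

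Collagens I and III, the main fibrillar collagens of connective tissue, were scarce. Col1a1 had 1.26 and 0.40 CPM in TAZ-KO clones 1 and 2, against 1.83, 6.75 and 3.15 CPM in WT clones 1, 2 and 3, with a log2 fold change of -2.23 (SE 0.79, edgeR adjusted p = 0.26, and 0.016 without WT clone 1). Col1a2 was at 0 and 4 counts in TAZ-KO clones, against 21, 9 and 6 counts in WT clones, and Col3a1 was at 2 counts in both TAZ-KO clones, against 21, 6 and 5 counts in WT clones. All 3 genes were below every WT clone in both TAZ-KO clones, a position that 18.6% of all genes tested had. The values of Col1a2 and Col3a1 rest on too few counts for the filter. Col8a1 and Col16a1, named after their values were seen, were the most abundant other chains. Col8a1 had 156 and 277 CPM in TAZ-KO clones, against 287, 234 and 295 CPM in WT clones, and Col16a1 had 183 and 133 CPM in TAZ-KO clones, against 186, 135 and 126 CPM in WT clones. Of 32 other collagen chain genes, 17 were listed and 11 tested, with none called by edgeR over all clones and a median log2 fold change of -0.49. At an unadjusted p of 0.05 in edgeR, none of the 11 was higher and 1 (Col1a1) was lower, where 7.94% and 9.41% of all genes were. Without WT clone 1, edgeR called Col17a1 higher and Col1a1, Col20a1 and Col27a1 lower, of 10 tested (all but Col1a1 named after their values were seen). In that fit 19.1% of all genes were called higher and 19.7% lower.

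Of 30 genes for enzymes and chaperones of collagen synthesis, 24 were listed and 22 tested, with none called by edgeR and a median log2 fold change of 0.30. At an unadjusted p of 0.05, 4 were higher and none lower in TAZ-KO clones, of 22, where 7.94% and 9.41% of all genes were. P4ha1, the catalytic subunit of prolyl 4-hydroxylase, had 168 and 169 CPM in TAZ-KO clones 1 and 2, against 129.5, 83.4 and 83.6 CPM in WT clones 1, 2 and 3 (log2 fold change 0.77, SE 0.26, edgeR adjusted p = 0.24, and 0.0020 without WT clone 1). Its TAZ-KO values lay close together and above every WT clone. Serpinh1, the collagen chaperone HSP47, had 390.1 and 935 CPM in TAZ-KO clones, against 712, 874 and 983 CPM in WT clones. The TAZ-KO clones differed from each other by more than the WT clones did (edgeR adjusted p = 0.64). P4ha2, another prolyl 4-hydroxylase subunit, had an edgeR adjusted p of 0.62, and Plod2, a lysyl hydroxylase, one of 0.74. Loxl2, a collagen cross-linking enzyme, had 0.13 and 0.20 CPM in TAZ-KO clones, against 0.07, 0.49 and 0.49 CPM in WT clones, near the floor.

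Of 27 matrix receptor genes, 22 were listed and all 22 tested, with none called by edgeR and a median log2 fold change of 0.22. At an unadjusted p of 0.05, 2 were higher and 1 lower in TAZ-KO clones, a share below the 17.4% of all genes in either direction. Itgb1, the β1 integrin subunit shared by collagen and fibronectin receptors, had 1219.9 and 1351 CPM in TAZ-KO clones 1 and 2, against 846, 941 and 1054 CPM in WT clones 1, 2 and 3. Both TAZ-KO clones were above every WT clone (log2 fold change 0.44, SE 0.22, edgeR adjusted p = 0.35). Itga5, its partner in the fibronectin receptor, overlapped between the groups, with 80.1 and 108 CPM in TAZ-KO clones and 92.2, 59.3 and 66.5 CPM in WT clones (edgeR adjusted p = 0.48, and 0.041 without WT clone 1). Cd44, a receptor for hyaluronan and osteopontin, had 801 and 1047 CPM in TAZ-KO clones, against 875, 424 and 446 CPM in WT clones. WT clone 1 lay between the TAZ-KO clones, and the edgeR adjusted p was 0.39 with it and 0.0048 without it. Cd47, the thrombospondin-1 receptor, had 75.7 and 128 CPM in TAZ-KO clones, against 129, 137 and 149.9 CPM in WT clones, and TAZ-KO clone 2 was barely below WT clone 1 (edgeR adjusted p = 0.41). Itgav (0.61), Itgb3 (0.63), Sdc4 (0.88) and Ddr1 (0.99) had edgeR adjusted p-values as given, and all 4 overlapped between the groups.

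Of 46 other matrix glycoprotein genes, 26 were listed and 14 tested, with none called by edgeR and a median log2 fold change of -0.30. At an unadjusted p of 0.05, 3 were higher and 2 lower in TAZ-KO clones, 5 of 14 where 17.4% of all genes passed in either direction. Tgfbi, a matricellular protein that binds collagen and integrins, had 0.59 and 1.27 CPM in TAZ-KO clones 1 and 2, against 2.10, 1.96 and 2.16 CPM in WT clones 1, 2 and 3 (edgeR adjusted p = 0.31). Thbs2 and Postn, relatives of Thbs1 and Tgfbi, were at most at 0.61 CPM in any clone, and Vcan, a large proteoglycan, at most at 1.06 CPM. Of the 135 genes of the 4 lists DESeq2 tested 88, and it called 3 higher and 3 lower at its adjusted p of 0.05, near the 5.25% called over all genes, and these are named after their values were seen. Sdc3, Antxr2 and Pcolce2 were higher and Itgb5, Matn2 and Tnxb lower in TAZ-KO clones. The call of Tnxb rested on WT clone 1, with 4.10 and 1.60 CPM in TAZ-KO clones, against 55.1, 7.30 and 4.56 CPM in WT clones. Its log2 fold change in edgeR was -2.96 with that clone and -1.05 without it (edgeR adjusted p = 0.29 and 0.13). Sdc3, a heparan sulphate proteoglycan of the cell surface, had the lowest p-value of these, with 251 and 187 CPM in TAZ-KO clones, against 84.6, 70.9 and 66.5 CPM in WT clones (log2 fold change 1.57, SE 0.22, edgeR adjusted p = 0.090, and 0.00082 without WT clone 1). Without WT clone 1, edgeR called 23 genes of the 4 lists higher and 8 lower of 66 tested, where 19.1% and 19.7% of all genes were called.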

How the data were processed

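Per gene, the authors deposited raw counts for 5 libraries, a normalised signal (counts divided by a size factor), regularised log2 values, and their own fold changes and p-values. Only the deposited raw counts were used. The methods describe trimming by cutadapt, STAR alignment and the UTAP pipeline for counting, and mm10 and DESeq2 appear in the submitters' processing notes. The labels name an mRNA protocol and the methods a 3′ end protocol. How strand was handled in counting was not given in the sources read. Every listed gene had at least 6 counts in 1 library.

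The main test was edgeR 4.0.16 (R 4.3.3; quasi-likelihood F-test, TMM, filterByExpr by group, genotype only, Benjamini-Hochberg over 11975 genes, adjusted p of 0.05), checked on simulated data. The SE is the log2 fold change over the square root of F, and spreads use log2 CPM with a prior count of 2. Alternatives were DESeq2 1.42.0, its size factors in edgeR, total counts, no filter, at least 50 counts in 2 libraries, limma-voom (limma 3.58.1), a replicate block, 1 surrogate variable (sva 3.50.0), a looser threshold and leaving out each clone. Coordinates and exon lengths are those of GENCODE for mm10, in which 12670 of 13143 symbols matched. Genes named were the 10, Wwtr1, their partner chains, and main enzymes, receptors, glycoproteins and fibrillar collagens. The genes and lists were chosen with earlier results of these data known. Protein features were not analysed here.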

Additional observations from a re-analysis of the deposited data

How the results depend on the processing

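The edgeR fits with DESeq2 size factors, total counts, no low-count filter or at least 50 counts in 2 libraries, and limma-voom, called none of the 10 genes and changed no sign. Sizes did change in limma-voom, where the log2 fold change was 1.31 for Spp1 (limma-voom adjusted p = 0.60), against 0.01 in the main fit. For Col12a1 it was 0.42, against 0.15. DESeq2 called 2 of the 10 genes (Tnc and Col5a1) and 6 of the 4 matrix lists, with 5.25% of all genes called. The fit with 1 surrogate variable called 2 (Tnc and Col7a1) and 10, with 528 genes (4.41%) called in all. An unadjusted p of 0.05 in edgeR called 2 of the 10 genes and 13 of the 69 list genes tested, where 17.4% of all genes passed. An adjusted p of 0.1 called 1 gene of the lists, Sdc3. Leaving out 1 clone called 0 to 7 of the 10 genes and 0 to 31 of the lists, and all calls came without WT clone 1. In that fit 19.1% of all genes were called higher and 19.7% lower. With 1 surrogate variable, signs turned for Thbs1 (0.021), Spp1 (-0.60) and Col18a1 (-0.20). That variable followed the split of WT clones 2 and 3 from the other clones. Over the fits that leave out 1 clone, the log2 fold change ran from -0.31 to 0.12 for Fn1, -0.52 to 2.60 for Spp1, -0.13 to 0.66 for Col7a1, -0.34 to 0.69 for Col12a1 and -0.016 to 0.75 for Col18a1. The causes were not tested. Tnc, Sparc, Col5a1 and Col6a1 kept their sign in every fit run, over ranges of 0.91 to 1.34, 0.27 to 0.78, -1.08 to -0.68 and 0.048 to 0.91. Deviations of same-numbered clones from their genotype mean had a correlation of -0.119 for both pairs. With 2 TAZ-KO clones the deviations of one mirror those of the other, so the 2 values are not separate. They cannot settle whether the numbers pair the samples. With the replicate block edgeR called 0 of the 10 genes and 0 genes in all, against 6 without it.

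With 2 and 3 clones, the 95% intervals of all 10 genes span more than 2-fold, so a difference that missed the threshold was not detectable here rather than absent. Col6a3, Col1a2, Col3a1, Loxl2, Thbs2 and Postn had too few counts to pass the filter.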

Other observations

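Spp1 lies in a cluster of genes for secreted phosphoproteins of bone and tooth on chromosome 5, and its neighbours there were looked at after the values of Spp1 were known. Dmp1, dentin matrix protein 1, lies 221 kb away and had 18.2 and 68.7 CPM in TAZ-KO clones 1 and 2, against 178, 3.56 and 2.41 CPM in WT clones 1, 2 and 3. As for Spp1, WT clone 1 was above and WT clones 2 and 3 were below both TAZ-KO clones, and edgeR gave an adjusted p of 0.90 with WT clone 1 and of 0.0029 without it. Ibsp, bone sialoprotein, was at 0 and 1 counts in TAZ-KO clones, against 14, 1 and 0 counts in WT clones. Pkd2, which encodes polycystin-2 and lies 18.4 kb from Spp1, had 222 and 188 CPM in TAZ-KO clones, against 237, 109 and 132 CPM in WT clones, an arrangement like that of Spp1 over a narrower range. The neighbourhood was not uniform. Of the 15 other genes tested within 1 Mb of Spp1, 5 had WT clones 2 and 3 below the other clones and 5 had them above. Over all genes tested, 59.2% had these clones on one side or the other, so the split is not particular to this region. Among those above was Aff1, with 119.8 and 89.1 CPM in TAZ-KO clones, against 85.6, 263 and 259.6 CPM in WT clones.

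On chromosome 10, Itgb2, the β2 integrin subunit of leukocytes, lies 364 kb from Col18a1 and was picked after its values were seen. It had 1.06 and 2.20 CPM in TAZ-KO clones, against 157, 31.9 and 20.8 CPM in WT clones, so both TAZ-KO clones were below every WT clone (log2 fold change -5.42, edgeR adjusted p = 0.14). Without WT clone 1 the edgeR adjusted p was 0.00058. Slc19a1, a folate carrier whose span overlaps that of Col18a1, had 18.8 and 13.8 CPM in TAZ-KO clones, against 17.3, 56.6 and 44.3 CPM in WT clones. WT clones 2 and 3 were above the other clones, where for Col18a1 they were below them.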
